A study of Mus musculus with 6 samples.

Results

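Solute carriers are membrane proteins, numbered by family from Slc1 onwards, that move ions, metals, sugars, vitamins and metabolites across cell and organelle membranes. The set described here holds 166 of the 13824 genes of the deposited normalized table. These are its genes whose symbol opens with Slc and a family number, without the glucose, cationic and neutral amino acid, monocarboxylate and other carriers that belong to central metabolic pathways (families Slc2a, Slc7a, Slc38a and Slc16a, and 7 single genes). Of the 201 Slc genes in that table, 35 were left out by this rule. The names chose the members within that table. The same rule applied to the 21017 genes of the count table gives 222, so having a row in the normalized table also set membership. For 5 of the 166 the symbol is not that of a working carrier: Slc9a3r1 and Slc9a3r2 encode scaffold proteins, Slc4a1ap an adaptor protein, Slc36a3os is an antisense transcript and Slc39a1-ps a pseudogene.

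The study compared ILC2s (group 2 innate lymphoid cells) by whether they made interleukin-10; these lymphocytes of tissues have no antigen receptor and secrete type 2 cytokines. C57BL/6J mice of 8 weeks carrying an IL-10 GFP reporter (genotype IL-10GFP in the labels) received 3 intranasal doses of recombinant mouse IL-33, and ILC2s were sorted from their lungs. All sorted cells were then kept for 48 h in IL-2, IL-7 and IL-4, and sorted again into an IL-10-producing group (3 libraries) and an IL-10-negative group (3 libraries). Both groups thus came from IL-33-treated reporter mice and had the same cytokines, so no group without IL-33 or without IL-4 enters the comparison, and the IL-10 call is that of the reporter. The labels do not say whether the libraries of a group came from separate mice, pools or cultures, so p-values speak of the spread among libraries, possibly a technical one.

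Carriers of the plasma membrane set what a lymphocyte can take up, and those of the inner mitochondrial membrane (Slc25), of lysosomes and of the Golgi set what reaches each compartment. Most work as uniporters, as symporters driven by the sodium or proton gradient, or as exchangers. Zinc provides the textbook example of paired families: Slc39 (ZIP) proteins bring zinc into the cytosol from outside or from organelles, and Slc30 (ZnT) proteins move it out of the cytosol.

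Levels are given as CPM, a count scaled by library total and TMM factor, in the order of replicates 1, 2 and 3 or as mean ± SD over the 3 libraries of each group, with the IL-10-producing group first. Positions are on mm10. The libraries held 47012941 to 69511433 estimated counts assigned to genes. Il10, whose reporter was used for the sort, was at 848 ± 7.78 against 13.5 ± 0.608 CPM, which checks the labels. All 13 genes of a list of ILC2 markers were above 1 CPM in both groups (5 higher, 6 lower and 2 that did not pass). Their summed level was 16220 to 16350 CPM in the IL-10-producing and 15380 to 15530 CPM in the IL-10-negative libraries. Genes within this sum ran in opposite directions. Il2ra was at 5835 ± 47.4 against 4206 ± 38.7 CPM, and Il1rl1 at 3299 ± 31.7 against 4069 ± 30.1 CPM. Lists of markers of other cell types were also measured, with none that had a row in the count table at 0 in either group. A list of 14 T-cell genes summed to 109 to 109.8 CPM in the IL-10-producing and 161 to 165 CPM in the IL-10-negative libraries (2 higher, 12 lower). In the IL-10-producing libraries most of that sum came from the 2 higher genes, Lef1 (41.5 ± 0.601 against 33.1 ± 1.22 CPM) and Ubash3a (47.5 ± 0.509 against 44.5 ± 0.968 CPM), while Cd3d was at 0.450 ± 0.0216 against 6.21 ± 0.342 CPM and Cd8a at 0.0594 ± 0.00430 against 15.3 ± 0.408 CPM. A list of 15 genes of mast cells, basophils and neutrophils summed to 13.3 to 15.4 against 104 to 109.5 CPM (12 of 13 tested genes lower, none higher). The sum for macrophages, monocytes and dendritic cells was 61.9 to 63.9 against 65.8 to 67.5 CPM (8 of 12 listed genes had a row, 1 higher and 3 lower). The sum for B cells was 48.3 to 49.9 against 38.8 to 39.9 CPM (7 genes, 2 higher and 4 lower). That for epithelium, endothelium and fibroblasts was 119 to 125 against 105 to 113 CPM (6 of 9 listed genes had a row, 1 higher and 2 lower). Of all genes tested, 17.1% were higher and 18.6% lower by the test given below.

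Tests are edgeR's quasi-likelihood test with Benjamini-Hochberg adjustment over all 16654 genes tested, with an adjusted p under 0.05 as the threshold. All 166 members passed the filter on low counts and were tested. Of these, 41 were higher and 38 lower in the IL-10-producing libraries, and 87 did not pass. The members called were thus 47.6%, against 35.7% of all genes tested and 41.04% of the genes of the normalized table from which members were drawn. In the 2 directions the shares were 24.7% higher and 22.9% lower among members, against 17.1% and 18.6% of all genes tested and 19.97% and 21.07% of the genes of the normalized table. The groups did not overlap for 94 members (56.6%), against 45.2% of all genes tested and 50.09% of the genes of the normalized table. No test of these shares was made.

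Most differences were small. The median log2 fold change of the 166 members was 0.01, beside a median of 0 over all genes tested, and 66 of the 79 members that passed differed by less than 0.5 on the log2 scale. The other 13 differed by at least 0.5, and the 6 that differed by at least 2-fold all lay under 5 CPM in both groups. Summed over members, the IL-10-producing libraries held 7436, 7463 and 7339 CPM and the IL-10-negative libraries 7281, 7239 and 7267 CPM. The IL-10-producing sums lay above all 3 IL-10-negative sums with TMM scaling, but the groups overlapped with scaling by library size alone (7342.5, 7357 and 7299 against 7362, 7315 and 7332 CPM). The changes ran in both directions even within families: of 29 families with at least 2 members, 11 held both a higher and a lower gene. Exons of at least 24 of the 79 members called overlap those of another gene, so their counts may hold reads of the neighbour. Among them are Slc4a2 (Fastk), Slc5a3 (Mrps6), Slc5a6 (Atraid), Slc15a3 (Tmem132a) and Slc26a10 (B4galnt1). Exon overlap was assessed only for the 150 members whose versioned identifier was found in the annotation used (GENCODE M21). Slc1a1, Slc18a2 and Slc39a7 were among those not assessed.

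**Figure D1:**
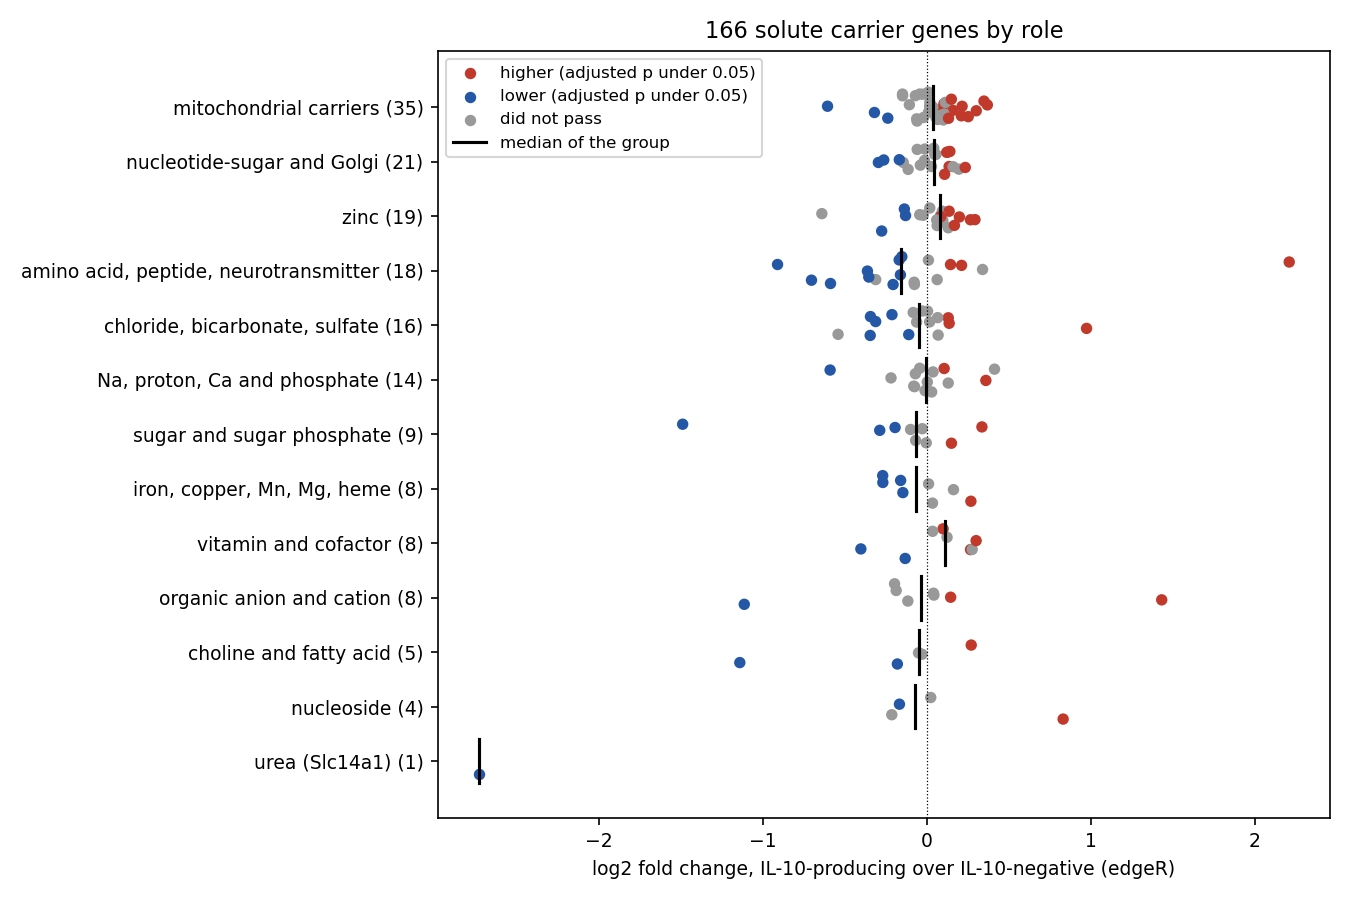
Each point is 1 of the 166 members, placed by its log2 fold change (IL-10-producing over IL-10-negative, from edgeR) in the row of its role, with the number of members of the role in brackets. Red and blue points passed at an adjusted p under 0.05, grey points did not, and black bars mark group medians. Most points lie within 0.5 of 0, and the few far points run from -2.73 (Slc14a1) to 2.21 (Slc1a1).

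Named by a rule on size and level, 2 members were higher and 4 lower. The rule asked for an adjusted p under 0.05, an absolute log2 fold change of at least 0.5 and at least 5 CPM in one group. It also asked that the groups not overlap, so the separation reported for these 6 was set by the rule. The higher pair were Slc4a11, a membrane protein of the bicarbonate transporter family best known from the corneal endothelium, and Slc29a4, the plasma membrane monoamine transporter. Slc4a11 (ENSMUSG00000074796.10, chromosome 2, 130684113 to 130697519) stood at 8.48, 8.79 and 8.70 CPM (IL-10-producing) and 4.42, 4.68 and 4.10 CPM (IL-10-negative). All 3 IL-10-producing libraries were far above the others and the groups did not overlap, with a mean of 8.66 ± 0.161 against 4.40 ± 0.286 CPM, 1.97-fold (log2 fold change 0.98, SE 0.089, adjusted p = 2.22e-09). Slc29a4 (ENSMUSG00000050822.11, chromosome 5, 142692512 to 142722490) stood at 4.91, 5.49 and 5.09 CPM (IL-10-producing) and 2.51, 3.16 and 3.02 CPM (IL-10-negative). Its groups were also apart, at 5.16 ± 0.297 against 2.90 ± 0.341 CPM, 1.78-fold (log2 fold change 0.83, SE 0.12, adjusted p = 2.63e-06).

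The 4 lower genes of this kind were Slc6a9, Slc6a8, Slc18a2 and Slc25a53. Slc6a9 (ENSMUSG00000028542.17, chromosome 4, 117834506 to 117875198), the glycine transporter GlyT1, stood at 25.97, 26.9 and 26.2 CPM (IL-10-producing) and 43.5, 41.5 and 43.6 CPM (IL-10-negative). The 3 IL-10-producing values lay close together and far under the others, at 26.3 ± 0.464 against 42.9 ± 1.17 CPM, a 1.63-fold lower level (log2 fold change -0.70, SE 0.041, adjusted p = 6.75e-13). Its exons overlap those of B4galt2 and Ccdc24, so part of its counts could belong to these neighbours. Slc18a2 (ENSMUSG00000025094.7, chromosome 19, 59260878 to 59296012), the vesicular monoamine transporter VMAT2, which loads histamine and serotonin into secretory vesicles, stood at 2.83, 2.86 and 2.44 CPM (IL-10-producing) and 5.12, 5.36 and 4.85 CPM (IL-10-negative). The groups did not overlap, with 2.71 ± 0.234 against 5.11 ± 0.254 CPM, 1.88-fold lower (log2 fold change -0.91, SE 0.12, adjusted p = 5.8e-07). Slc25a53, a mitochondrial carrier with no known substrate (chromosome X, 136981116 to 137038302), stood at 9.94, 9.90 and 10.4 CPM (IL-10-producing) and 14.4, 15.5 and 15.99 CPM (IL-10-negative). The lowest IL-10-negative library was above the highest IL-10-producing one (log2 fold change -0.60, SE 0.066, adjusted p = 4.77e-08). Slc6a8, the creatine transporter (chromosome X, 73673150 to 73682502), stood at 3.10, 3.30 and 3.81 CPM (IL-10-producing) and 4.96, 4.66 and 5.65 CPM (IL-10-negative), again without overlap (log2 fold change -0.59, SE 0.12, adjusted p = 0.000245).

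The lower level of these genes came with lower markers of mast cells, basophils and neutrophils, among which mast cells are known to make VMAT2, and of T cells. In the first list 12 of 15 genes were under 1 CPM in the IL-10-producing group and 4 in the IL-10-negative group, and the summed levels did not overlap. Lower markers included the mast cell protease genes Cpa3 (4.46 ± 0.549 against 22.9 ± 1.58 CPM) and Cma1 (4.26 ± 0.427 against 22.1 ± 1.09 CPM). The T-cell gene Cd3e was lower too (1.254 ± 0.0789 against 8.19 ± 0.283 CPM). In bulk samples, fewer cells of a type and less RNA per cell cannot be told apart, and the part of these cell types in the differences of the solute carriers was not tested.

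The 6 members with at least 2-fold differences lay at low levels and were picked for their size after their values were seen. Slc1a1 (ENSMUSG00000024935.10, chromosome 19, 28835049 to 28913960), the glutamate and cysteine transporter EAAT3, stood at 1.93, 2.52 and 3.25 CPM (IL-10-producing) and 0.463, 0.631 and 0.551 CPM (IL-10-negative). Every IL-10-producing library held at least 3 times the highest IL-10-negative value, and the means were 2.57 ± 0.660 against 0.549 ± 0.0840 CPM, 4.63-fold (log2 fold change 2.21, SE 0.23, adjusted p = 1.62e-08). Slc13a5 (ENSMUSG00000020805.14, chromosome 11, 72241989 to 72267222), the sodium-coupled citrate transporter of the plasma membrane, stood at 3.94, 4.25 and 4.34 CPM (IL-10-producing) and 1.51, 2.06 and 1.05 CPM (IL-10-negative). Its groups did not overlap (2.70-fold higher, log2 fold change 1.43, SE 0.17, adjusted p = 2.26e-07). An exon of the transcript 1700051A21Rik overlaps it.

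The 4 lower genes among them were Slc14a1, Slc45a3, Slc27a6 and Slc22a23. Slc14a1, the urea transporter UT-B (chromosome 18, 78100091 to 78142119), stood at 0.260, 0.263 and 0.385 CPM (IL-10-producing) and 1.87, 2.08 and 2.01 CPM (IL-10-negative). It had the lowest log2 fold change of all members, with 0.303 ± 0.0713 against 1.99 ± 0.106 CPM, 6.64-fold lower (log2 fold change -2.73, SE 0.25, adjusted p = 2.1e-09). Slc27a6, a fatty acid transport protein (chromosome 18, 58556257 to 58612773), stood at 1.56, 1.52 and 1.75 CPM (IL-10-producing) and 3.50, 3.41 and 3.70 CPM (IL-10-negative). Its IL-10-producing values were under 2 CPM and its IL-10-negative values above 3 CPM (2.20-fold lower, log2 fold change -1.14, SE 0.14, adjusted p = 5.38e-07). Slc45a3, of a family of sugar transporters, was at 0.519 ± 0.146 against 1.43 ± 0.257 CPM (log2 fold change -1.49, SE 0.26, adjusted p = 5.17e-05), and its exons overlap those of Gm29103. Slc22a23, an organic ion family member with no settled substrate, was at 1.02 ± 0.0714 against 2.20 ± 0.426 CPM (log2 fold change -1.11, SE 0.19, adjusted p = 5.15e-05). None of these 4 genes had overlapping groups.

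**Figure D2:**
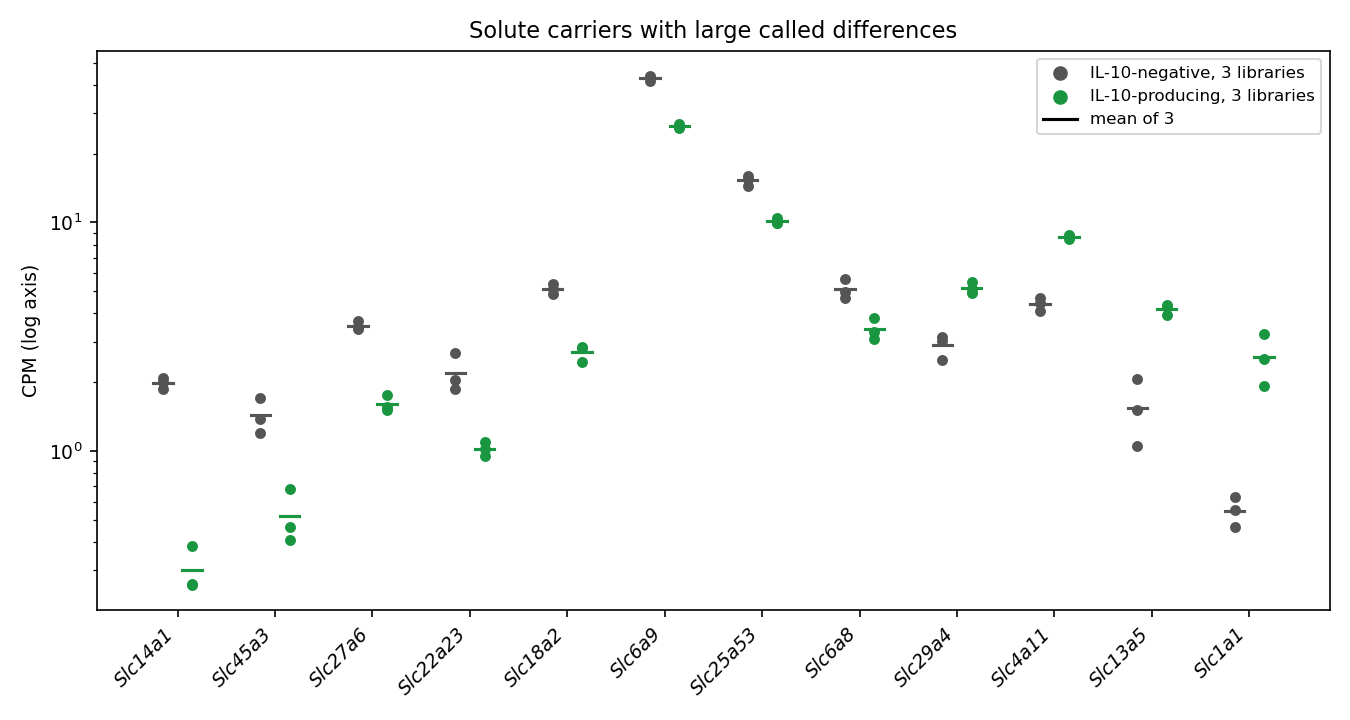
CPM on a log axis of 12 members described in the text, the 6 named by the rule on size and level and the 6 with at least 2-fold differences, with 1 point per library and a bar at the mean of 3 (grey IL-10-negative, green IL-10-producing). Slc14a1 falls from a mean of 1.99 to 0.303 CPM and Slc1a1 stands at 2.57 against 0.549 CPM. No gene shows overlapping groups, which the rule required of the 6 it named.

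Roles were assigned by family number, and mitochondrial carriers were the largest role group. Of 35 Slc25 genes, 11 were higher and 3 lower, and 21 did not pass (40% called, beside 41.04% of the genes of the normalized table and 35.7% of all genes tested), with a median log2 fold change of 0.04 and a range of -0.60 to 0.37. With scaling by library size alone the counts were 9 higher and 5 lower. Slc25a5 and Slc25a4 encode exchangers of ADP and ATP. Slc25a5 stood at 427, 424 and 425 CPM (IL-10-producing) and 382, 383 and 383 CPM (IL-10-negative). Its 3 IL-10-producing libraries were all higher, by a small step that was large beside the spread (425 ± 1.29 against 383 ± 0.700 CPM, log2 fold change 0.15, SE 0.018, adjusted p = 2.44e-07). Slc25a4 was higher too, at 237 ± 4.15 against 216 ± 1.998 CPM (log2 fold change 0.13, SE 0.021, adjusted p = 1.3e-05). Slc25a5 has many near-identical pseudogene copies, and the rule by which reads were divided among them is not given in the sources used here. Its level is uncertain.

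The calcium-regulated carriers of ATP-magnesium and phosphate split. Slc25a24 rose, with 125, 123 and 126 CPM (IL-10-producing) and 105, 105 and 104 CPM (IL-10-negative), with no overlap (log2 fold change 0.25, SE 0.025, adjusted p = 6.2e-09). Slc25a23 fell, with 19.2, 19.995 and 18.8 CPM (IL-10-producing) and 24.02, 23.3 and 25.1 CPM (IL-10-negative) (log2 fold change -0.32, SE 0.051, adjusted p = 1.83e-05), also with no overlap. The third of them, Slc25a25, did not pass, at 36.8 ± 0.340 against 37.4 ± 0.689 CPM (log2 fold change -0.02, SE 0.039, adjusted p = 0.709). Among carriers of iron, the importer Slc25a28 (mitoferrin-2) was at 15.8 ± 0.623 against 18.7 ± 1.16 CPM (log2 fold change -0.24, SE 0.059, adjusted p = 0.00246). Its relative Slc25a37 (mitoferrin-1) was at 37.4 ± 0.332 against 36.9 ± 1.004 CPM (log2 fold change 0.02, SE 0.04, adjusted p = 0.749).

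Slc25a10, which exchanges dicarboxylates for phosphate, stood at 25.9, 23.7 and 24.3 CPM (IL-10-producing) and 18.96, 18.9 and 19.2 CPM (IL-10-negative). All 3 IL-10-producing libraries were higher (log2 fold change 0.37, SE 0.051, adjusted p = 1.85e-06). The aspartate-glutamate carriers Slc25a12 (95.7 ± 2.58 against 89.99 ± 3.15 CPM, log2 fold change 0.09, SE 0.03, adjusted p = 0.0186) and Slc25a13 (8.29 ± 0.506 against 6.73 ± 0.130 CPM, log2 fold change 0.30, SE 0.082, adjusted p = 0.00474) also passed. So did the citrate carrier Slc25a1 (53.8 ± 1.86 against 49.9 ± 0.114 CPM, log2 fold change 0.11, SE 0.035, adjusted p = 0.021). The calls of Slc25a12 and Slc25a1 were lost with scaling by library size alone and without some libraries (for Slc25a12, IL-10-producing replicate 2 or IL-10-negative replicate 2 or 3, and for Slc25a1, IL-10-producing replicate 1 or IL-10-negative replicate 3), with adjusted p of up to 0.119 and 0.12. Other higher genes were the uncoupling-protein relatives Slc25a14 (0.35) and Slc25a30 (0.21) and the glutathione carrier relative Slc25a40 (0.22), in log2 fold change. The phosphate carrier Slc25a3, needed for ATP synthesis, was at 356 ± 6.13 against 353 ± 3.90 CPM (log2 fold change 0.01, SE 0.02, adjusted p = 0.706), and the oxoglutarate carrier Slc25a11 (0.07) and the NAD carrier Slc25a51 (-0.04) did not pass either. Summed over the 35 genes the IL-10-producing group held 2319 CPM and the IL-10-negative group 2198 CPM on average, while transcripts of the mitochondrial genome made up 1.18% to 1.29% of the counts of every library.

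**Figure D3:**
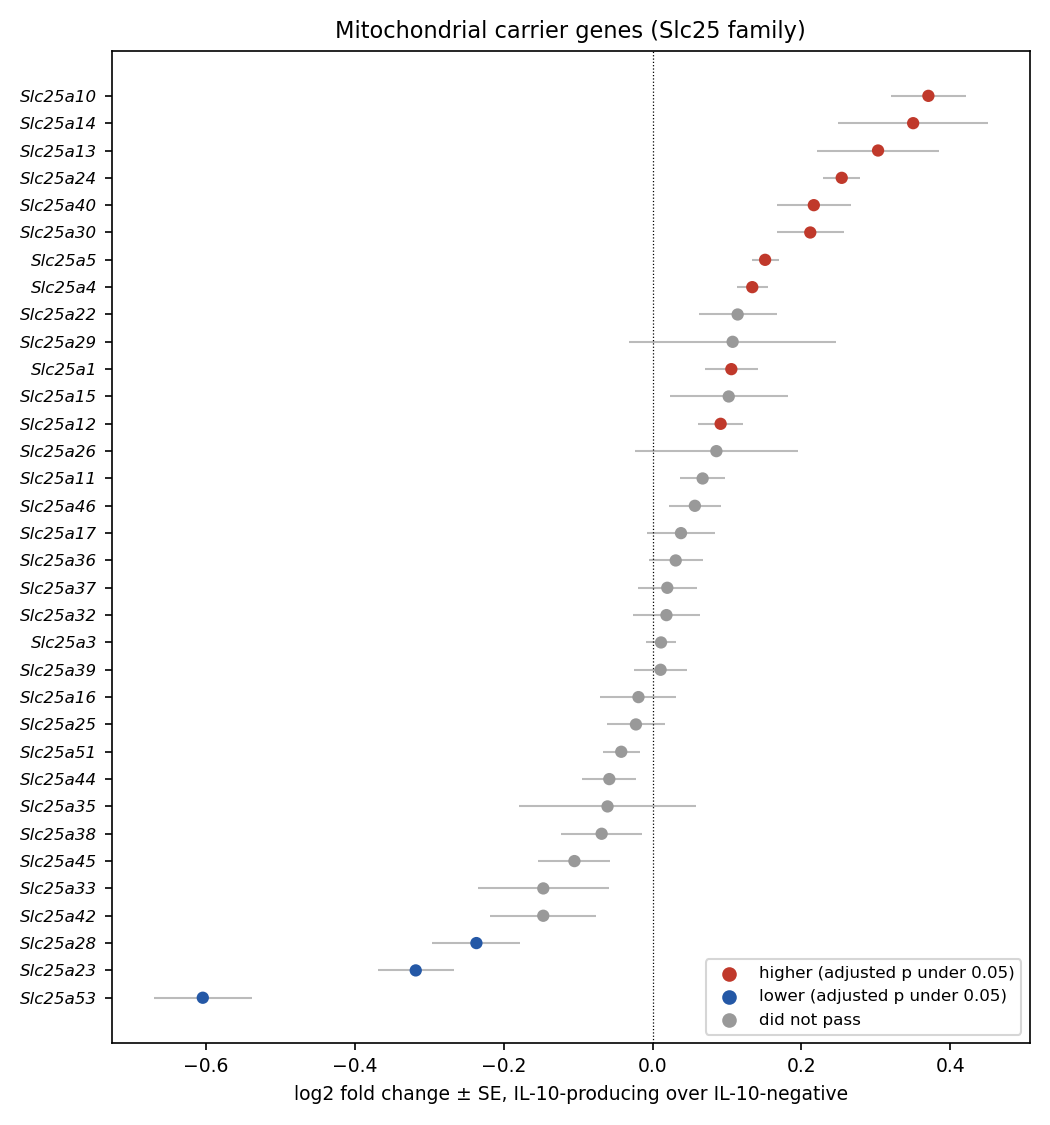
Log2 fold change (IL-10-producing over IL-10-negative) with its SE for the Slc25 genes, all but 1 of which are drawn, in order of size; red and blue mark genes past an adjusted p of 0.05. The higher genes reach 0.37 (Slc25a10) and the 3 lower genes reach -0.60 (Slc25a53); Slc25a17, drawn with them, sits in peroxisomes.

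Of 19 zinc transporter genes (Slc39 and Slc30, with the pseudogene Slc39a1-ps among them), 6 were higher and 3 lower. The median log2 fold change of the 19 was 0.08, and 47.4% were called, beside 41.04% of the genes of the normalized table. With scaling by library size alone, 5 were higher and 3 lower. Slc39a14 (ZIP14), which also carries iron and manganese, stood at 94.3, 93.6 and 91.7 CPM (IL-10-producing) and 74.9, 75.2 and 77.9 CPM (IL-10-negative). The groups were far apart beside their spread (93.2 ± 1.34 against 75.97 ± 1.64 CPM, log2 fold change 0.30, SE 0.028, adjusted p = 5.26e-09). Its near relative Slc39a8 (ZIP8) stood at 38.4, 38.4 and 38.3 CPM (IL-10-producing) and 31.8, 32.2 and 31.6 CPM (IL-10-negative), with tight, separate groups (log2 fold change 0.27, SE 0.039, adjusted p = 5.26e-06). The surface importers Slc39a10 and Slc39a6, which are known to act as a pair, both rose. Slc39a10 stood at 45.5, 47.7 and 50.05 CPM (IL-10-producing) and 41.8, 42.1 and 40.8 CPM (IL-10-negative) (log2 fold change 0.20, SE 0.039, adjusted p = 0.000214). Slc39a6 stood at 202, 198 and 197 CPM (IL-10-producing) and 181, 180.3 and 169 CPM (IL-10-negative) (log2 fold change 0.17, SE 0.025, adjusted p = 5.3e-06). The groups of neither gene overlapped. Slc39a1 was at 102 ± 3.71 against 96.4 ± 2.98 CPM with overlapping groups (log2 fold change 0.09, SE 0.03, adjusted p = 0.0263), and this call was lost without IL-10-producing replicate 2 or IL-10-negative replicate 2 or 3 and with scaling by library size alone, with an adjusted p of up to 0.184.

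The lower zinc genes were Slc39a7, which releases zinc from the endoplasmic reticulum, Slc39a3 and Slc39a4. Slc39a7 stood at 182, 186 and 181 CPM (IL-10-producing) and 208, 196 and 199 CPM (IL-10-negative), with no overlap (log2 fold change -0.14, SE 0.024, adjusted p = 5.57e-05). Slc39a3 stood at 17.8, 18.8 and 17.9 CPM (IL-10-producing) and 22.5, 21.9 and 21.6 CPM (IL-10-negative), again apart (log2 fold change -0.27, SE 0.051, adjusted p = 0.000126). Slc39a4, known as the dietary zinc importer of the gut, was at 43.4 ± 3.15 against 47.5 ± 0.703 CPM (log2 fold change -0.13, SE 0.043, adjusted p = 0.0212), and it no longer passed without IL-10-producing replicate 3 or IL-10-negative replicate 3 (highest adjusted p 0.182). Among Slc39 genes that did not pass, the log2 fold changes were 0.06 for Slc39a9, -0.02 for Slc39a11, 0.02 for Slc39a13 and 0.13 for the pseudogene Slc39a1-ps.

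On the export side, 1 of 7 Slc30 genes passed (14.3%, beside 41.04% of the genes of the normalized table). Slc30a5, which loads zinc into the early secretory pathway, stood at 85.9, 82.5 and 84.2 CPM (IL-10-producing) and 75.6, 73.8 and 80.1 CPM (IL-10-negative). The groups were separate (log2 fold change 0.14, SE 0.032, adjusted p = 0.00118). Slc30a1 (ZnT1), the exporter of the plasma membrane and a textbook target of the zinc-sensing factor MTF-1, stood at 16.97, 15.6 and 16.9 CPM (IL-10-producing) and 14.6, 15.9 and 15.4 CPM (IL-10-negative). These groups overlapped and the gene did not pass (log2 fold change 0.10, SE 0.06, adjusted p = 0.214). Slc30a6, the partner of Slc30a5, was at 13.9 ± 1.02 against 13.1 ± 0.466 CPM (log2 fold change 0.08). Slc30a4 (0.10), Slc30a7 (-0.04) and Slc30a9 (0.06) did not pass, and neither did Slc30a2, which lay under 1 CPM on average in both groups.

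Promoter windows of Slc30a1 and Slc30a5 are printed because they hold the core of sequences to which metal-responsive factors are known to bind, and of the pair Slc30a5 passed the test while Slc30a1 did not. They are 100 bases long, 5′ to 3′ on the strand of the gene, from RefSeq on GRCm38.p6, the patch release of the mm10 build. Capitals in the Slc30a1 window (chr1:191906681-191906780, plus strand) mark a match on the opposite strand to TGCACNC, the core of the metal response element, at -43 to -37 from the start of transcription. Capitals in the Slc30a5 window (chr13:100833428-100833527, minus strand) mark a match on the opposite strand to TGCGCNC, its variant with G in the middle, at -48 to -42.
Slc30a1: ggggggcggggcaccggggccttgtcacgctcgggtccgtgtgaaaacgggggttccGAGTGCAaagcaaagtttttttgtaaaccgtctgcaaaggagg
Slc30a5: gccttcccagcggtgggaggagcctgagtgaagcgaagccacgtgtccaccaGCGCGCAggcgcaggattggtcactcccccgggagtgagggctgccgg
The letters are a description of these windows and not a binding site. TGCACNC was found, on either strand of the 250 bases before the start, in 10.4% of all 32851 windows of the table and TGCGCNC in 12.5%. Counted per gene, 11.8% of 27025 genes held the first and 13.99% the second, beside 18 (14.2%) and 29 (22.8%) of the 127 members with a window. Of 15 zinc transporter genes with a window, 4 held each. Among zinc genes that passed, Slc39a8 and Slc39a3 also held TGCACNC, and they passed in opposite directions.

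Of 8 genes for iron, copper, magnesium and heme, 4 were lower, 1 was higher and 3 did not pass. The share called was 62.5%, beside 41.04% of the genes of the normalized table. Slc48a1 (HRG1), which moves heme out of endosomes and lysosomes, stood at 125, 125 and 119.8 CPM (IL-10-producing) and 152, 143 and 149.5 CPM (IL-10-negative). The groups did not overlap (123 ± 2.93 against 148 ± 4.59 CPM, log2 fold change -0.27, SE 0.027, adjusted p = 9.37e-09), and its exons overlap those of Hdac7. Slc11a2 (DMT1), the iron carrier that works beside the transferrin receptor in endosomes, stood at 27.97, 27.4 and 24.6 CPM (IL-10-producing) and 31.01, 29.7 and 28.8 CPM (IL-10-negative). Its groups were separate but close (log2 fold change -0.16, SE 0.05, adjusted p = 0.015), and the call was lost without IL-10-producing replicate 3 or IL-10-negative replicate 1 (highest adjusted p 0.117). Slc11a1 (NRAMP1), the phagosomal relative, was at 2.92 ± 0.147 against 2.61 ± 0.366 CPM and did not pass.

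The copper transporters differed: Slc31a2 stood at 18.8, 17.03 and 16.6 CPM (IL-10-producing) and 21.4, 21.5 and 20.3 CPM (IL-10-negative) (log2 fold change -0.27, SE 0.056, adjusted p = 0.000491), without overlap. Slc31a1, the main copper importer, was at 57.6 ± 2.77 against 56.2 ± 2.96 CPM (log2 fold change 0.04, SE 0.04, adjusted p = 0.536). Of the magnesium carriers, Slc41a1 fell (39.03 ± 0.707 against 43.1 ± 1.21 CPM, log2 fold change -0.14, SE 0.038, adjusted p = 0.00414). Slc41a2 rose (7.33 ± 0.543 against 6.07 ± 0.534 CPM, log2 fold change 0.27, SE 0.092, adjusted p = 0.0239) and Slc41a3 did not pass (log2 fold change 0.01). The call of Slc41a2 was lost without IL-10-producing replicate 3 or IL-10-negative replicate 2 or 3, with an adjusted p of up to 0.104.

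Genes that handle the same metals without being solute carriers were also mixed. Of 28 such genes, 8 were higher and 7 lower (53.6%, beside 35.7% of all genes tested), with a median log2 fold change of 0.01. The transferrin receptor gene Tfrc, whose protein brings in iron upstream of Slc11a2, stood at 362, 369.9 and 374 CPM (IL-10-producing) and 291, 301 and 289 CPM (IL-10-negative) (log2 fold change 0.33, SE 0.021, adjusted p = 3.2e-12). The ferritin genes, whose products store iron, ran the other way: Ftl1 was at 1417 ± 1.02 against 1628 ± 22.2 CPM (log2 fold change -0.20, SE 0.016, adjusted p = 2.25e-10) and Fth1 at 802 ± 9.01 against 881 ± 5.19 CPM (log2 fold change -0.14, SE 0.017, adjusted p = 3.72e-07). Groups did not overlap for any of these 3 genes, while Mtf1, the gene of the zinc-sensing factor, was at 49.05 ± 1.84 against 48.4 ± 2.30 CPM and did not pass.

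**Figure D4:**
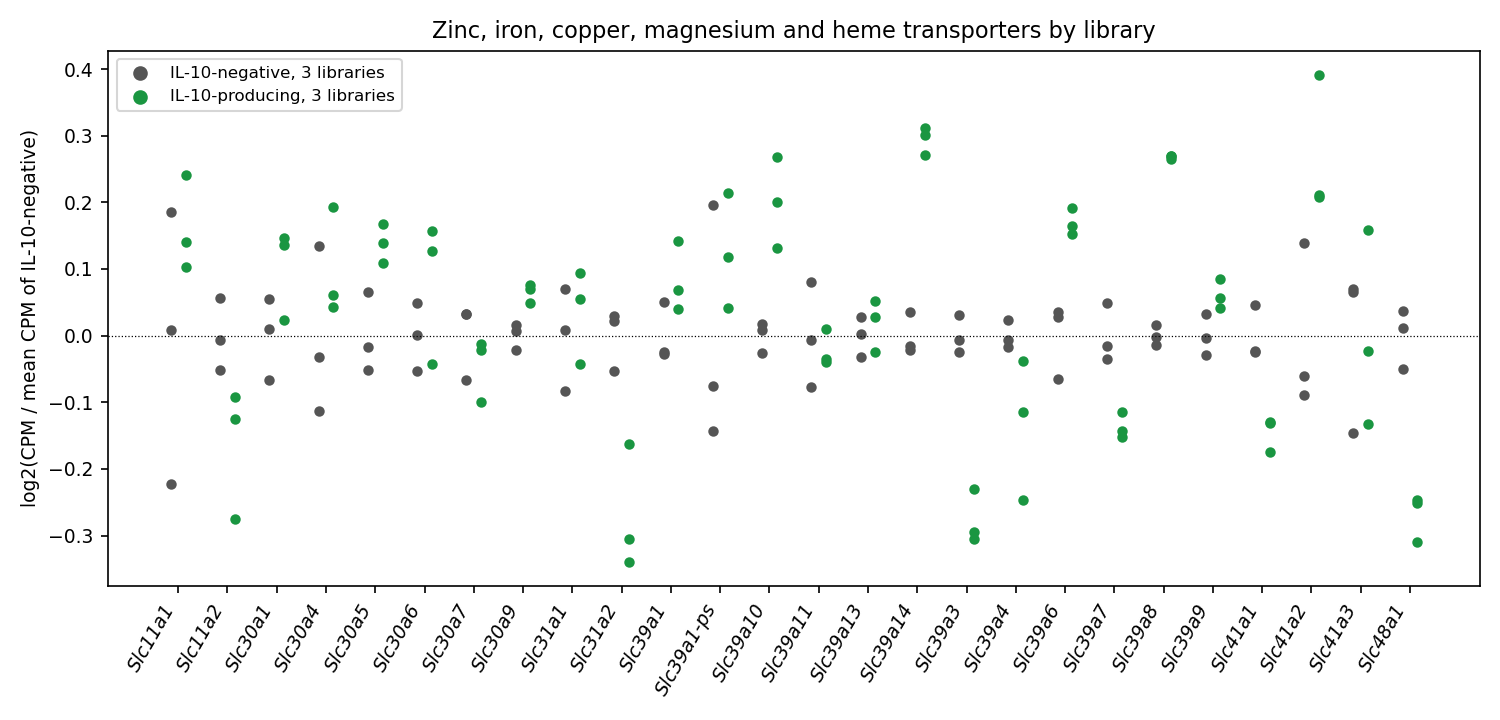
Each point is the level of a metal transporter gene in 1 library, as the log2 of its CPM over the mean CPM of the IL-10-negative group, so that 0 is the IL-10-negative mean; Slc30a2 is left out for its low level. Slc39a14 and Slc39a8 sit between 0.2 and 0.4 in the 3 IL-10-producing libraries, Slc48a1, Slc31a2 and Slc39a3 sit below 0 there, and most other genes lie within 0.2 of 0.

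The genes of amino acid, peptide and neurotransmitter families numbered 18 (with the antisense transcript Slc36a3os, which did not pass). Among them 9 were lower and 3 higher, with a median log2 fold change of -0.16. This made 66.7% called, beside 41.04% of the genes of the normalized table. Besides Slc6a9, Slc6a8 and Slc18a2, the taurine transporter Slc6a6 fell, at 145, 142 and 137 CPM (IL-10-producing) and 156, 161 and 157 CPM (IL-10-negative). Its groups were separate (log2 fold change -0.16, SE 0.025, adjusted p = 1.09e-05). Slc43a2 (LAT4), which moves branched-chain amino acids, stood at 89.5, 91.9 and 84.1 CPM (IL-10-producing) and 102, 103 and 102 CPM (IL-10-negative) (log2 fold change -0.20, SE 0.03, adjusted p = 4.79e-06). Slc43a3, a purine nucleobase transporter of the same family, stood at 96.3, 95.8 and 89.4 CPM (IL-10-producing) and 82.3, 80.7 and 80.1 CPM (IL-10-negative) (log2 fold change 0.21, SE 0.03, adjusted p = 3.19e-06). These relatives thus passed in opposite directions, both without overlap.

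Of 4 Slc17 genes, 3 were lower (75% called, beside 41.04% of the genes of the normalized table). They were Slc17a5, which exports sialic acid from lysosomes (5.94 ± 0.502 against 7.59 ± 0.750 CPM, log2 fold change -0.35, SE 0.094, adjusted p = 0.0044), Slc17a6, a vesicular glutamate transporter (3.25 ± 0.219 against 4.19 ± 0.372 CPM, log2 fold change -0.36, SE 0.12, adjusted p = 0.0192), and Slc17a9, a vesicular nucleotide transporter whose groups overlapped (18.5 ± 0.802 against 20.5 ± 1.24 CPM, log2 fold change -0.15, SE 0.057, adjusted p = 0.0405). The calls of Slc17a6 and Slc17a9 were lost without any of 4 single libraries (IL-10-producing replicates 1 and 3, IL-10-negative replicates 1 and 2), with adjusted p of up to 0.0845 and 0.193, the latter also with other tests. The lysosomal peptide and histidine transporter Slc15a3 was lower (47.8 ± 1.16 against 53.7 ± 2.503 CPM, log2 fold change -0.17, SE 0.038, adjusted p = 0.00104). The amino acid transporter Slc36a4 was higher (63.7 ± 2.61 against 57.5 ± 1.54 CPM, log2 fold change 0.15, SE 0.035, adjusted p = 0.00186).

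Among 16 genes of chloride, bicarbonate and sulfate families (with the adaptor gene Slc4a1ap, which did not pass), 3 were higher and 5 lower. That is 50% called, beside 41.04% of the genes of the normalized table. Scaling by library size alone gave 3 higher and 6 lower. Of 6 cation-chloride cotransporter genes (Slc12), 1 was higher and 2 lower (50% called, beside the same 41.04%). Slc12a2 (NKCC1), which brings chloride in, stood at 40.3, 41.6 and 40.02 CPM (IL-10-producing) and 38.7, 36.9 and 35.4 CPM (IL-10-negative) (log2 fold change 0.14, SE 0.041, adjusted p = 0.00995), a call lost without IL-10-producing replicate 2 or IL-10-negative replicate 3 (highest adjusted p 0.0727). The potassium-chloride exporter Slc12a7 (KCC4) fell and stood at 21.8, 23.4 and 22.2 CPM (IL-10-producing) and 28.4, 28.5 and 28.6 CPM (IL-10-negative) (log2 fold change -0.34, SE 0.047, adjusted p = 1.67e-06). Groups of both genes were separate. Of the bicarbonate family, Slc4a7, a sodium-bicarbonate importer, rose (79.1 ± 2.43 against 72.1 ± 0.396 CPM, log2 fold change 0.13, SE 0.03, adjusted p = 0.00107). The anion exchanger Slc4a2 was lower at 76.5 ± 3.21 against 82.6 ± 0.699 CPM (log2 fold change -0.11, SE 0.031, adjusted p = 0.00754), a call lost without IL-10-producing replicate 1 (adjusted p 0.07). Slc26a10 (log2 fold change -0.31) and Slc26a6 (-0.34) were lower too, the latter with overlapping groups. The call of Slc26a10 was lost without IL-10-producing replicate 1 or 3 or IL-10-negative replicate 2 (adjusted p up to 0.137). That of Slc26a6 was lost without IL-10-producing replicate 2 or 3 or IL-10-negative replicate 1. It was also lost with another test, limma-voom (adjusted p up to 0.251 over these settings).

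There were 14 genes of sodium, proton, calcium and phosphate families (with the scaffold genes Slc9a3r1 and Slc9a3r2, neither of which passed). Of these, 2 were higher, 1 was lower and 11 did not pass (2 higher and 2 lower with scaling by library size alone). The share called was 21.4%, beside 41.04% of the genes of the normalized table. The scaffold gene Slc9a3r1 was at 238 ± 1.90 against 233 ± 4.66 CPM (log2 fold change 0.03, SE 0.021, adjusted p = 0.283). The phosphate importer Slc20a1 stood at 114 ± 3.40 against 106 ± 2.48 CPM (log2 fold change 0.11, SE 0.028, adjusted p = 0.0032). The sodium-calcium exchanger Slc8a1 was lower, at 1.66 ± 0.0958 against 2.504 ± 0.520 CPM (log2 fold change -0.59, SE 0.17, adjusted p = 0.00884), with a call lost without IL-10-negative replicate 1 (adjusted p 0.0757).

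Genes of ion, pH and volume control that are not solute carriers, with pumps and kinases among them, were given by a list of 26. Of these, 24 were in the count table. Of the 24, 7 were higher and 7 lower (58.3%, beside 35.7% of all genes tested), with a median log2 fold change of -0.02. The plasma membrane calcium pumps split: Atp2b4 stood at 378, 390.0 and 381 CPM (IL-10-producing) and 259, 265 and 266 CPM (IL-10-negative) (log2 fold change 0.54, SE 0.02, adjusted p = 8.99e-17). Atp2b1 stood at 342, 350.0 and 351 CPM (IL-10-producing) and 385, 391 and 399 CPM (IL-10-negative) (log2 fold change -0.17, SE 0.02, adjusted p = 1.53e-07). Stk39, which encodes SPAK, the kinase that activates Slc12a2 and restrains the Slc12 exporters, was at 67.99 ± 0.338 against 56.8 ± 1.196 CPM (log2 fold change 0.26, SE 0.031, adjusted p = 2.73e-07). Its upstream kinase gene Wnk1 (0.10) and its relative Oxsr1 (0.08) were also higher in log2 fold change, Oxsr1 with close groups and a call lost in 4 of 14 other ways of processing (adjusted p up to 0.189).

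Nucleotide-sugar and related carriers of the Golgi and endoplasmic reticulum showed 6 higher and 3 lower genes of 21. This was 42.9% called, beside 41.04% of the genes of the normalized table. With scaling by library size alone, 5 of the 21 genes were higher and 3 lower. Slc35b4, which carries UDP-xylose and UDP-N-acetylglucosamine, had the clearest difference of these by p, at 91.04, 94.5 and 91.9 CPM (IL-10-producing) and 112, 109.9 and 111 CPM (IL-10-negative). All IL-10-producing values lay below the lowest IL-10-negative value (log2 fold change -0.26, SE 0.026, adjusted p = 1.07e-08). Slc35e1, without a known substrate, stood at 230.1, 227 and 226 CPM (IL-10-producing) and 212, 207 and 209.8 CPM (IL-10-negative) (log2 fold change 0.12, SE 0.021, adjusted p = 3.34e-05), without overlap. The UDP-N-acetylglucosamine carrier Slc35a3 (90.8 ± 1.44 against 82.5 ± 2.60 CPM) and Slc35b1, which brings ATP into the endoplasmic reticulum (79.98 ± 1.52 against 74.1 ± 1.03 CPM), were higher, as were Slc35d1, Slc35e2 and Slc35g1 (log2 fold changes 0.14, 0.13 and 0.24). The call of Slc35e2 was lost without IL-10-producing replicate 2 and with scaling by library size alone (adjusted p up to 0.16). Slc35a5 (-0.29) and Slc35f6 (-0.17) were lower, and Slc35f6 kept its call under 2 of 14 other ways of processing the data.

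Vitamin and cofactor carriers gave 3 higher and 2 lower genes of 8 (2 and 2 with scaling by library size alone). The share called was 62.5%, beside 41.04% of the genes of the normalized table. Slc52a3, a riboflavin transporter, stood at 51.6, 53.96 and 51.4 CPM (IL-10-producing) and 42.02, 42.8 and 42.5 CPM (IL-10-negative) (log2 fold change 0.30, SE 0.036, adjusted p = 2.09e-07), without overlap. The thiamine importer Slc19a2 stood at 62.1, 63.5 and 62.9 CPM (IL-10-producing) and 50.6, 54.4 and 51.5 CPM (IL-10-negative), likewise without overlap (log2 fold change 0.27, SE 0.034, adjusted p = 6.41e-07). Slc33a1, which brings acetyl-CoA into the endoplasmic reticulum, was at 72.3 ± 2.88 against 67.3 ± 0.664 CPM (log2 fold change 0.10, SE 0.032, adjusted p = 0.0168) and missed the threshold without IL-10-producing replicate 1 or 3 or IL-10-negative replicate 2 or 3 and with scaling by library size alone (adjusted p up to 0.106). The ascorbate transporter Slc23a2 (46.9 ± 2.15 against 51.5 ± 1.48 CPM, log2 fold change -0.13, SE 0.039, adjusted p = 0.00956) and the lysosomal Slc46a3 (3.54 ± 0.247 against 4.68 ± 0.628 CPM, log2 fold change -0.40, SE 0.12, adjusted p = 0.00981) were lower. Each lost its call without 1 library (adjusted p 0.0724 without IL-10-producing replicate 3 and 0.0692 without IL-10-negative replicate 1).

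Of 9 sugar and sugar phosphate carriers 2 were higher and 3 lower (1 and 4 with scaling by library size alone). Of 5 choline and fatty acid carriers 1 was higher and 2 lower, and of 4 nucleoside carriers 1 and 1. Of 8 organic ion carriers 2 were higher and 1 lower (2 and 2 with library size alone). In that order 55.6%, 60%, 50% and 37.5% were called, beside 41.04% of the genes of the normalized table. Because roles follow family number, the higher nucleoside carrier is the monoamine transporter Slc29a4. The sugar carriers likewise include Slc5a6, which carries vitamins. Of the choline transporter-like genes, Slc44a1 stood at 57.5, 57.4 and 58.2 CPM (IL-10-producing) and 48.4, 47.9 and 46.98 CPM (IL-10-negative) (log2 fold change 0.27, SE 0.033, adjusted p = 3.41e-07). Slc44a2 stood at 105, 109 and 105 CPM (IL-10-producing) and 120.0, 121 and 121 CPM (IL-10-negative) (log2 fold change -0.18, SE 0.026, adjusted p = 3.58e-06). The first was higher and the second lower in all 3 IL-10-producing libraries. In the sugar phosphate family, Slc37a2 stood at 37.5, 36.98 and 34.7 CPM (IL-10-producing) and 30.1, 27.1 and 29.4 CPM (IL-10-negative) (log2 fold change 0.34, SE 0.047, adjusted p = 2.14e-06). Slc37a3 stood at 68.6, 69.7 and 70.2 CPM (IL-10-producing) and 77.1, 78.5 and 82.6 CPM (IL-10-negative) (log2 fold change -0.19, SE 0.031, adjusted p = 1.94e-05), and these genes also passed in opposite directions. The inositol transporter Slc5a3 (15.3 ± 0.407 against 13.8 ± 0.405 CPM, log2 fold change 0.15, SE 0.059, adjusted p = 0.049) passed narrowly and kept its call under 3 of 14 other ways of processing. The biotin and pantothenate transporter Slc5a6 was lower (6.82 ± 0.249 against 8.34 ± 0.304 CPM, log2 fold change -0.29, SE 0.08, adjusted p = 0.00659). The lysosomal nucleoside carrier Slc29a3 was lower at 21.8 ± 0.403 against 24.5 ± 0.981 CPM (log2 fold change -0.17, SE 0.049, adjusted p = 0.01), with an adjusted p of 0.0506 without IL-10-producing replicate 1. Slc10a7, of the bile acid carrier family, was higher at 39.3 ± 1.26 against 35.5 ± 1.44 CPM (log2 fold change 0.15, SE 0.042, adjusted p = 0.00749).

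Levels were compared between genes only per kilobase of exon. Slc25a5 was the highest of the 161 carriers, at 258 ± 0.786 CPM per kb in the IL-10-producing group and 233 ± 0.426 in the IL-10-negative group (mean ± SD, n = 3 each). Slc25a4 was the next carrier at 101 ± 1.77 and 91.9 ± 0.851, then Slc39a7 at 70.7 ± 0.966 and 77.7 ± 2.40, and Slc25a3 at 64.2 ± 1.10 and 63.7 ± 0.702 CPM per kb. The scaffold gene Slc9a3r1, no carrier, lay between Slc25a5 and Slc25a4 at 124 and 121 CPM per kb. The ranges of these 4 carriers over the 6 libraries did not overlap. Below them, Slc48a1 (43.5 to 55.4 CPM per kb over the 6 libraries), Slc35e1 (46.2 to 51.5), Slc39a6 (41.5 to 49.6) and Slc39a1 (39.98 to 44.96) followed. The ranges of neighbours in this order overlapped, while that of Slc35e1 lay above that of Slc39a1. These ranges pool both groups. Slc48a1 was below Slc35e1 in the IL-10-producing group (means of 44.76 and 50.99 CPM per kb). It was above Slc35e1 in the IL-10-negative group (53.93 and 46.83 CPM per kb). At the other end, 6 members lay under 1 CPM in both groups.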

How the data were processed

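RNA was sequenced in 6 libraries of lung ILC2s, 3 IL-10-producing and 3 IL-10-negative. The submitters' processing notes name STAR 2.5.3a, Partek, bcl2fastq 2.17.1.14 and the mm10 genome. The authors deposited estimated counts per gene (50.4% of the values were not whole), which were rounded here, and a table of normalized signal, in which every value equalled the deposited count plus 1 times a factor per library, within 1%. That table fixed the members. The annotation release, the strand setting of the counting and the handling of multiply mapped reads are not given in the sources used here. Genes with overlapping exons are therefore uncertain (at least 45 members overlap another gene in GENCODE M21, at least 24 of them called). Of the 166 members, 150 matched that release by versioned identifier, and exon overlap was not assessed for the others. Library depth was 47012941 to 69511433 counts. Replicates were no copies: within groups, the median chi-square of pairs of libraries was 2.39 to 2.96 times that of Poisson counting, a ratio of variances.

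Counts were tested with edgeR 4.0.16 (R 4.3.3): filterByExpr (minimum count 10, minimum total 15), TMM, group as the only term, quasi-likelihood F test, and Benjamini-Hochberg adjustment over 16654 genes, with a threshold of 0.05. The script was tested on simulated data. Alternatives were a test against 1.2-fold changes, a replicate block, leaving out each library, DESeq2 1.42.0, DESeq2 size factors, library size alone, limma-voom (limma 3.58.1), limma on log2 of the normalized signal plus 1, no filter, and a filter of at least 50 counts in 3 libraries. Levels per kb used the merged exon length. Members and lists were chosen with earlier results of these data known. The naming rule took members past the threshold without overlap, at an absolute log2 fold change of at least 0.5 and at least 5 CPM. Up to 15 were taken in each direction. The rule also took the member of smallest p and that of highest count in each role. With all Slc11, Slc30, Slc31, Slc39 and Slc40 members, it gave 48 genes. From each list of partner genes and the left-out carriers the few of smallest p were named. Other members were named to complete a family or a count. They and Mtf1, Wnk1, Oxsr1, Cpa3, Cma1, Cd3e, Cd3d, Cd8a, Lef1, Ubash3a, Il2ra and Il1rl1 were chosen after their values were seen. Promoter windows came from RefSeq (GRCm38.p6). A few members are counted here but not reported by name.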

Additional observations from a re-analysis of the deposited data

How the results depend on the processing

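Of the 79 members called, 59 kept the call and direction in all 14 other settings apart from the 1.2-fold test, and none of the 79 changed sign in any setting. Against a change of 1.2-fold, 5 members were higher and 8 lower (7.83%), beside 407 and 910 of all genes (7.91%). Slc1a1, Slc4a11, Slc29a4 and Slc13a5 were among the higher genes. With scaling by library size alone, 35 members were higher and 44 lower (44.3% of calls higher, beside 51.9%), and 2206 and 3794 of all genes (36.8%, beside 47.8% from 2840 and 3103). Leaving out 1 library gave 35 to 42 higher and 30 to 37 lower members, and 2478 to 2696 higher and 2739 to 2823 lower genes in all. Reversed signs came from genes that did not pass. Over the fits that left out 1 library, Slc31a1 ran from -0.004 to 0.076 (below 0 without IL-10-negative replicate 3), Slc39a11 from -0.059 to 0.02 (above 0 without IL-10-negative replicate 1), Mtf1 from -0.011 to 0.056 (below 0 without IL-10-producing replicate 2 or IL-10-negative replicate 3) and Slc41a3 from -0.075 to 0.077 (below 0 without IL-10-producing replicate 2 or IL-10-negative replicate 1). Library size alone gave -0.011 for Slc39a13, -0.01 for Mtf1, -0.019 for Slc25a3, -0.011 for Slc25a37 and -0.019 for Slc41a3. These are log2 fold changes, and the cause was not tested. With the replicate number as a block, 40 members were higher and 37 lower (2778 and 3039 of all genes), and 77 of the 79 calls were kept. Libraries with the same number did not deviate together (correlations of -0.05, -0.02 and -0.03). Counting noise can hide a shared mouse, culture or sort, so this check cannot decide whether the numbers pair the libraries. Of the 87 members that did not pass, 14 did in 1 or 2 of the other settings, among them Slc30a4 (0.17 without IL-10-negative replicate 2), Slc25a11 (0.089 without IL-10-producing replicate 3) and Slc25a51 (-0.073 with library size alone).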

Other observations

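The 35 genes with solute carrier symbols that the rule left out, most of them of the Slc2a, Slc7a, Slc38a and Slc16a families, gave 10 higher and 10 lower genes (57.1%, beside 41.04% of the genes of the normalized table they were drawn from and 35.7% of all genes tested), with a median log2 fold change of 0.03. The difference between these and the 166 members was not tested. Slc7a8 (LAT2), an exchanger of neutral amino acids, stood at 398, 399.7 and 386 CPM (IL-10-producing) and 573, 582 and 577 CPM (IL-10-negative), which put all IL-10-producing libraries far below the others (log2 fold change -0.55, SE 0.019, adjusted p = 1.85e-17, edgeR). Slc3a2, the heavy chain that pairs with this kind of exchanger, was at 295 ± 2.49 against 395 ± 6.85 CPM (log2 fold change -0.42), and the lactate exporter Slc16a3 was at 164 ± 5.11 against 117 ± 1.90 CPM (log2 fold change 0.49).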
